A study of Mus musculus with 6 samples.

Results

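The genes described here are 40 genes of the G2-M transition and the mitotic spindle. They were listed by symbol from their known roles, with earlier results of these data known. All 40 were found among the 23889 symbols of the deposited tables, and all were followed across 6 mouse RNA sequencing libraries. Androgenetic haploid embryonic stem cells (AG-haESCs) gave 3 libraries, from the lines A129-2, AOS-14 and AOS-16, with 1 library a line. Their labels give the strain as F1 hybrid C57BL/6 X DBA/2. The lines were derived from blastocysts that grew after a sperm head was placed in a BDF1 oocyte without its spindle, and were kept on feeders in a medium with serum replacement and 2i, that is, MEK and GSK3 inhibitors. Cells in G0/G1 were taken for RNA by flow sorting. Round sperm of the same hybrid strain gave 1 library, whose label repeats the sorting and culture text of the AG-haESCs. Embryonic stem cells labelled XX (ESC XX), of an Oct-GFP (C57) background, gave 2 libraries. They grew in serum with LIF and 2i and were collected after removal of feeders, with no sort named. The sort, the strain and the medium therefore cannot be told apart from the cell type in any comparison of AG-haESCs with ESC XX. Nothing in the labels says that the 2 ESC XX libraries are separate cultures.

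Cells enter mitosis when Cdk1, bound to a B-type cyclin, is freed of the inhibitory phosphates that Wee1 adds and Cdc25 phosphatases remove. Aurora and Polo kinases then drive spindle assembly, the spindle checkpoint holds the anaphase-promoting complex (APC/C) until chromosomes are attached, and the APC/C with Cdc20 or Fzr1 marks mitotic proteins for destruction. Most of these genes are transcribed in late S and G2 phase, under the DREAM, MYB-MuvB and FOXM1 complexes that act through CHR and CCAAT elements in their promoters, and their transcripts are low in G1. Round spermatids are haploid cells that have finished meiosis and do not divide, and male germ cells use several of these proteins in the meiotic divisions.

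Estimated depth ranged from 9.24 to 19.7 M (mega) fragments per library, taking the smallest depth that explained the steps of low values. For AOS-16, round sperm and the second ESC XX library, depths of 21.0, 21.8 and 38.1 M scored best, against 10.5, 10.8 and 19.1 M used here, so the depth and fragment numbers of these libraries may be too low by that ratio. In each library 11406 to 12515 genes reached an FPKM of 1, a unit of fragments scaled by transcript length and library depth. Values were also rescaled to TPM, in which every library has the same total, because the total FPKM of round sperm was 1239220 against 509359 to 707325 in AG-haESCs and 507556 and 507692 in ESC XX. Genes under 200 nt took 0.111% of the FPKM in A129-2, 12.7% in AOS-14, 0.00983% in AOS-16, 6.26% in round sperm, and 0.00292% and 0.100% in ESC XX. Pluripotency markers summed to 7769 to 8520 TPM in AG-haESCs, 206 TPM in round sperm, and 8102 and 8202 TPM in ESC XX, and spermatid markers to 4.14 to 8.38 TPM, 36921 TPM, and 3.03 and 5.02 TPM in the same order. The expression of both lists thus went with the labels.

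Promoter sequences were read for 34 of the 40 genes, as windows of 250 bases before to 50 bases after the annotated start (RefSeq, GRCm38.p6, whereas the expression files were made on mm9). The letters TTTGAA of the CHR element, on either strand, were in 24 of 34 windows (70.6%), against 15.7% of 16706 windows of all genes in the tables. The letters CCAAT, on either strand, were in 27 windows (79.4%), against 38.9% of all genes. Both were present in 21 windows (61.8%), against 6.51%, and TTTGAA lay within 50 bases of the start in 22 (64.7%), against 3.88%. A match of letters describes the window and is not a measured binding site. Aurka, Ube2c, Nusap1 and Kif4 are printed because the first 3 had the largest differences between AG-haESCs and ESC XX among the 40 genes and Kif4 had a small positive difference (0.29 after the median over all genes was removed), and because Nusap1 holds neither motif. Capitals mark TTTGAA or TTCAAA and CCAAT or ATTGG, and adjacent CCAAT boxes can share letters. The windows are chr2:172370521-172370820 on the minus strand for Aurka, chr2:164769679-164769978 on the plus strand for Ube2c, chr2:119618048-119618347 on the plus strand for Nusap1, and chrX:100625815-100626114 on the plus strand for Kif4.
Aurka: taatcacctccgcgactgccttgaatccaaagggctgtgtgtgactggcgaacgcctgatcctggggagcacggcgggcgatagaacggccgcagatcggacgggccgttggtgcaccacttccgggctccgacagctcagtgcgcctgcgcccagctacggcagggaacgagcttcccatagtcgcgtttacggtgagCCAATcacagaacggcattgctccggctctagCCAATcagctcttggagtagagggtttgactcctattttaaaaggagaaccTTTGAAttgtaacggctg
Ube2c: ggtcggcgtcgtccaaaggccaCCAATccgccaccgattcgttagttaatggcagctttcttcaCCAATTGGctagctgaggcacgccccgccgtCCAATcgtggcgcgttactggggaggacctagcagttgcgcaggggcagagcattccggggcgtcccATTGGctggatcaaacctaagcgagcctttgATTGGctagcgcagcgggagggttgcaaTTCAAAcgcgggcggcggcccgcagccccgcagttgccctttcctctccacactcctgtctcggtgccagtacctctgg
Nusap1: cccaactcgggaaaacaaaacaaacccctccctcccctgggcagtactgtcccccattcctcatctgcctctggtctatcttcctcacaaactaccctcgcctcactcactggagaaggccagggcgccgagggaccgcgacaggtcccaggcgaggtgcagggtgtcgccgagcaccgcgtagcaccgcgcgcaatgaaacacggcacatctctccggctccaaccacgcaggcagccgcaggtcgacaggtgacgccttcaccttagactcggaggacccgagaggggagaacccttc
Kif4: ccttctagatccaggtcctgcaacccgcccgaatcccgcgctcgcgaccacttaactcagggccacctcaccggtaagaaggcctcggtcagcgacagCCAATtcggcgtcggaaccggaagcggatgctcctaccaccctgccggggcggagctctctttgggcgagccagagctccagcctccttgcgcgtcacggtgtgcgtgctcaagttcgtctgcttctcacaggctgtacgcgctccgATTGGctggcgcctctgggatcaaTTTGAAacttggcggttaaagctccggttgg

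The Aurka and Kif4 windows each hold 1 CHR and 2 CCAAT matches, with the CHR match downstream of the start, and the Ube2c window holds 1 CHR match and 6 CCAAT matches. Of the 16 genes that were lower in AG-haESCs than in ESC XX, 12 had a window, with none for Aurkb, Incenp, Kif20a and Wee1. Both motifs were held in 9 of these 12 windows (75.0%), against 12 of 22 windows of the other genes (54.5%). TTTGAA was in 83.3% against 63.6%, and CCAAT in 83.3% against 77.3%. Within 50 bases of the start, TTTGAA was in 66.7% against 63.6%, so by that measure the groups were close. Kif4, which was not lower, has the same pair of motifs as Aurka, which was.

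**Figure D1:**
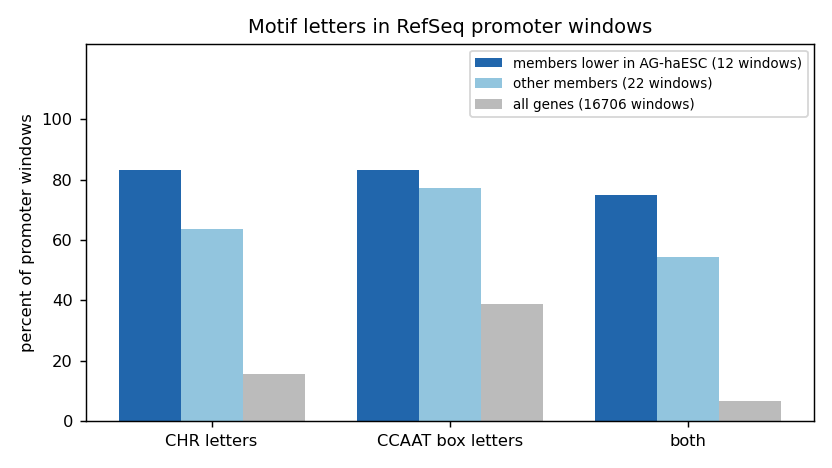
Percent of RefSeq promoter windows that hold the CHR letters, the CCAAT box letters or both (y axis), by group of genes. The groups are the 12 of 16 genes lower in AG-haESCs than in ESC XX that have a window, the 22 other genes of the set with a window and all 16706 genes with a window. Both motifs were present in 75.0%, 54.5% and 6.51% of windows in that order, and the CCAAT letters in 83.3%, 77.3% and 38.9%.

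The 40 genes were expressed in all 3 kinds of cell. None was listed at 0, and 38 reached an FPKM of 1 in every library. The exceptions were Cenpa, the centromeric histone H3 variant, and Cdc25b, both under 1 in round sperm only. The median level over the 40 genes was 42.2, 42.1 and 40.1 TPM in A129-2, AOS-14 and AOS-16, 37.3 TPM in round sperm, and 73.9 and 76.3 TPM in ESC XX. Their summed level was 1861, 2307 and 2369 TPM in the AG-haESC lines, 1993 TPM in round sperm, and 3985 and 4024 TPM in ESC XX. All AG-haESC sums and the round sperm sum lay below both ESC XX sums. In bulk libraries, fewer cells expressing a gene and less RNA per cell cannot be told apart. Ube2c, the E2 enzyme that works with the APC/C, was the highest of the 40 in AG-haESCs (192 ± 31.2 TPM, mean ± SD, n = 3) and in ESC XX (597 and 599.5 TPM). In round sperm the highest was Cdca3, at 257 TPM, with Cenpa the lowest at 0.261 TPM. Cenpf, a kinetochore protein, was the lowest in AG-haESCs at 6.54 ± 1.69 TPM (SD, n = 3).

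**Figure D2:**
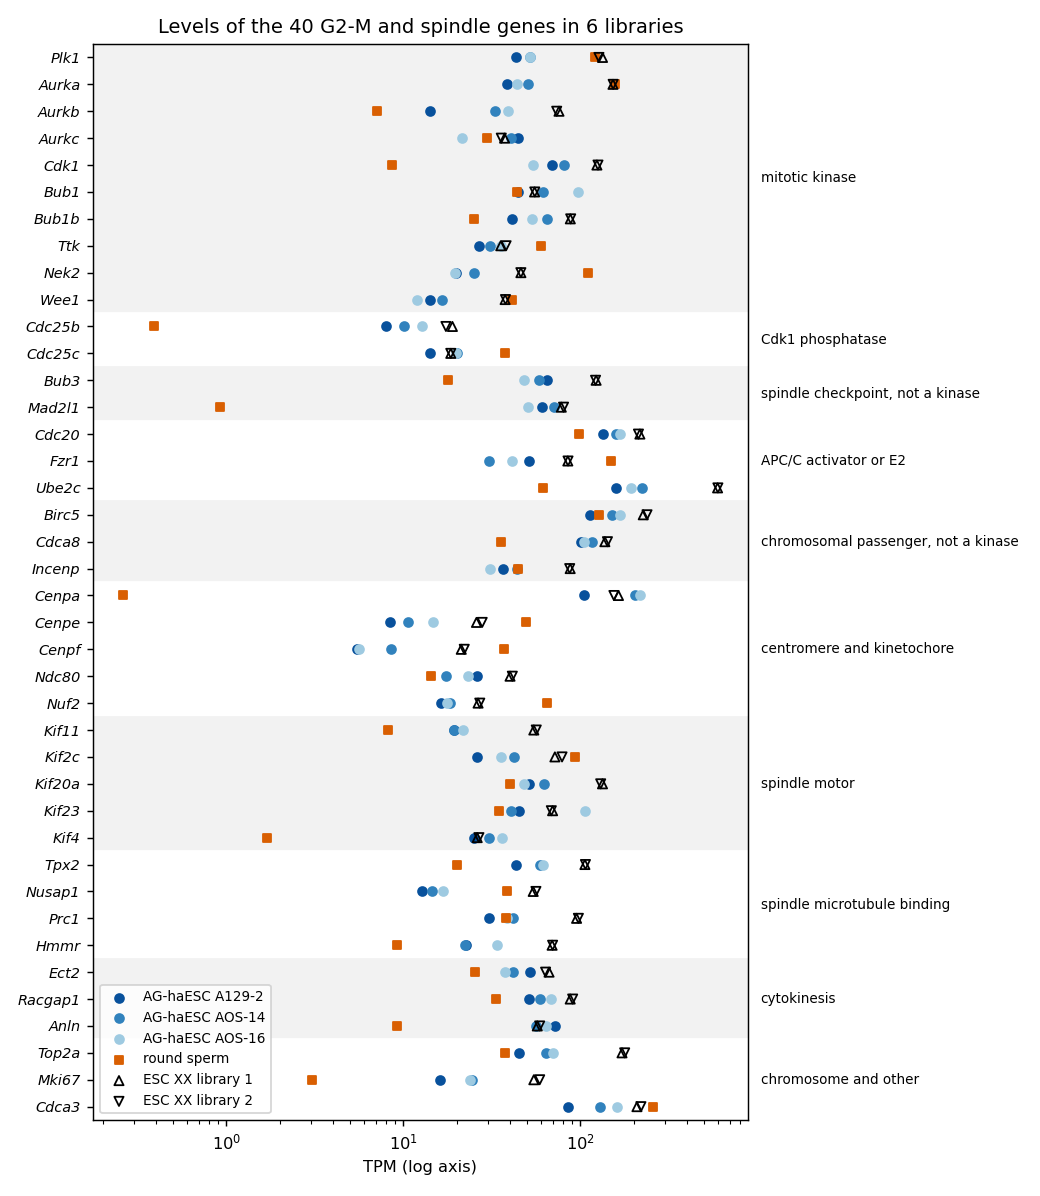
TPM (log axis) of each of the 40 genes in the 3 AG-haESC lines (filled circles), round sperm (squares) and the 2 ESC XX libraries (open triangles), ordered by role. The ESC XX pair nearly coincides for every gene, most AG-haESC points lie to its left, and round sperm ranges from 0.261 TPM for Cenpa to 257 TPM for Cdca3.

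AG-haESCs were set against ESC XX as another kind of mouse embryonic stem cell in 2i. Of the 40 genes, 16 were lower in AG-haESCs and 0 were higher. Here lower means a difference in group means of at least 1 on the log2(TPM + 1) scale, after the median over all genes was removed, with every AG-haESC line below both ESC XX libraries. By the same rule 8.28% of the 13172 genes compared were lower and 7.37% were higher, and the 40 genes stood at 40% and 0%. No test was run because the libraries came in separately scaled tables. The median difference over the 40 genes was -0.83, with a range from -1.75 for Nusap1 to 0.31 for Bub1, and 35 of 40 differences were negative. With the median removed, all 3 lines lay below both ESC XX libraries for 32 genes, a position held by 25.7% of all genes, and above them for 2 genes (Kif4 and Anln), a position held by 24.9%. After quantile normalization these were 31 genes and 1 gene, and in TPM without removal of the median 1 line of Kif4 and 1 line of Anln lay below both ESC XX libraries.

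Among the 10 mitotic kinases, 4 were lower. Aurka, which matures centrosomes and builds the spindle with its activator Tpx2, stood at 38.5, 50.6 and 44.0 TPM in the AG-haESC lines against 153 TPM in each ESC XX library, a difference of -1.68. Plk1, the Polo kinase of mitotic entry and spindle assembly, stood at 43.4, 52.0 and 52.3 TPM in AG-haESCs against 134 and 128 TPM in ESC XX, a difference of -1.30. Both genes were lower in every line and the groups did not overlap. Aurkb, the kinase of the chromosomal passenger complex, differed by -1.36, and Wee1, the kinase that holds Cdk1 inactive, by -1.26. Cdk1 itself was at 69.0, 80.5 and 53.8 TPM in AG-haESCs against 124 and 126 TPM in ESC XX, a difference of -0.80 that did not reach the threshold. Nek2, a centrosome kinase, was just outside it at -0.98. The checkpoint kinases did not follow one pattern, with Bub1b at -0.65, Ttk at -0.14 and Bub1 at 0.31. Aurkc, the Aurora kinase known from meiosis, stood at 44.5, 40.7 and 21.6 TPM in AG-haESCs, a range that holds both ESC XX values (37.4 and 35.8 TPM).

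Of the Cdk1 phosphatases, the checkpoint proteins that are not kinases and the APC/C activators and E2, 7 genes in all, Ube2c was lower and the others did not reach the threshold. It stood at 160.1, 222 and 195 TPM in AG-haESCs against 597 and 599.5 TPM in ESC XX, a difference of -1.55. The APC/C activators Fzr1, which works in late mitosis and G1, and Cdc20, which works in mitosis, differed by -0.97 and -0.39. The phosphatase Cdc25b differed by -0.69, and its relative Cdc25c, at 14.2, 20.2 and 19.9 TPM in AG-haESCs, overlapped the ESC XX libraries at 18.6 TPM each. The checkpoint proteins Bub3 and Mad2l1, which form the signal that restrains Cdc20, differed by -0.997 and -0.29, so that Bub3 was just outside the threshold.

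Spindle and kinetochore genes made up most of the rest. Of 4 genes for spindle microtubule binding, 3 were lower. Nusap1, which bundles spindle microtubules, had the largest difference of the 40 genes, at 12.7, 14.6 and 16.7 TPM in AG-haESCs against 54.2 and 56.2 TPM in ESC XX. The midzone bundler Prc1 differed by -1.28, Hmmr, which sits at spindle poles, by -1.29, and Tpx2 by -0.87. Of 5 motors, 3 were lower, namely Kif11, the motor that pushes spindle poles apart (-1.33), Kif20a, a midzone kinesin (-1.19), and Kif2c, a microtubule depolymerase, which was just inside the threshold (-1.02). Of 5 centromere and kinetochore genes, Cenpf (-1.51) and Cenpe, a kinetochore motor (-1.12), were lower, whereas Ndc80 (-0.76) and Nuf2 (-0.49), which form the microtubule-binding complex of the outer kinetochore, were not. Of the passenger complex, Incenp, its scaffold, was lower (-1.13), and Birc5 (-0.61) and Cdca8 (-0.28) stayed within the threshold. Top2a, the topoisomerase that separates sister chromatids, stood at 45.4, 64.2 and 70.1 TPM in AG-haESCs against 172 and 178 TPM in ESC XX. Mki67, which coats mitotic chromosomes and encodes the Ki-67 antigen, stood at 16.1, 24.3 and 23.8 TPM in AG-haESCs against 54.7 and 59.0 TPM in ESC XX. Top2a differed by -1.46 and Mki67 by -1.29, with no overlap for either.

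By this rule 24 of the 40 genes were not lower. Cytokinesis genes had no member past the threshold, with Ect2 at -0.48, Racgap1 at -0.49 and Anln, an actin-binding ring protein, at 0.23. The chromokinesin Kif4, the only X-linked gene of the set, stood at 25.2, 30.5 and 36.1 TPM in AG-haESCs against 26.2 and 26.8 TPM in ESC XX, a difference of 0.29 after the median was removed, although A129-2 lay below both ESC XX libraries in TPM. Cenpa differed by 0.16. Its lines were far apart, at 105, 204 and 216 TPM in AG-haESCs against 164 and 155 TPM in ESC XX, so the AG-haESC values lay on both sides of ESC XX.

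**Figure D3:**
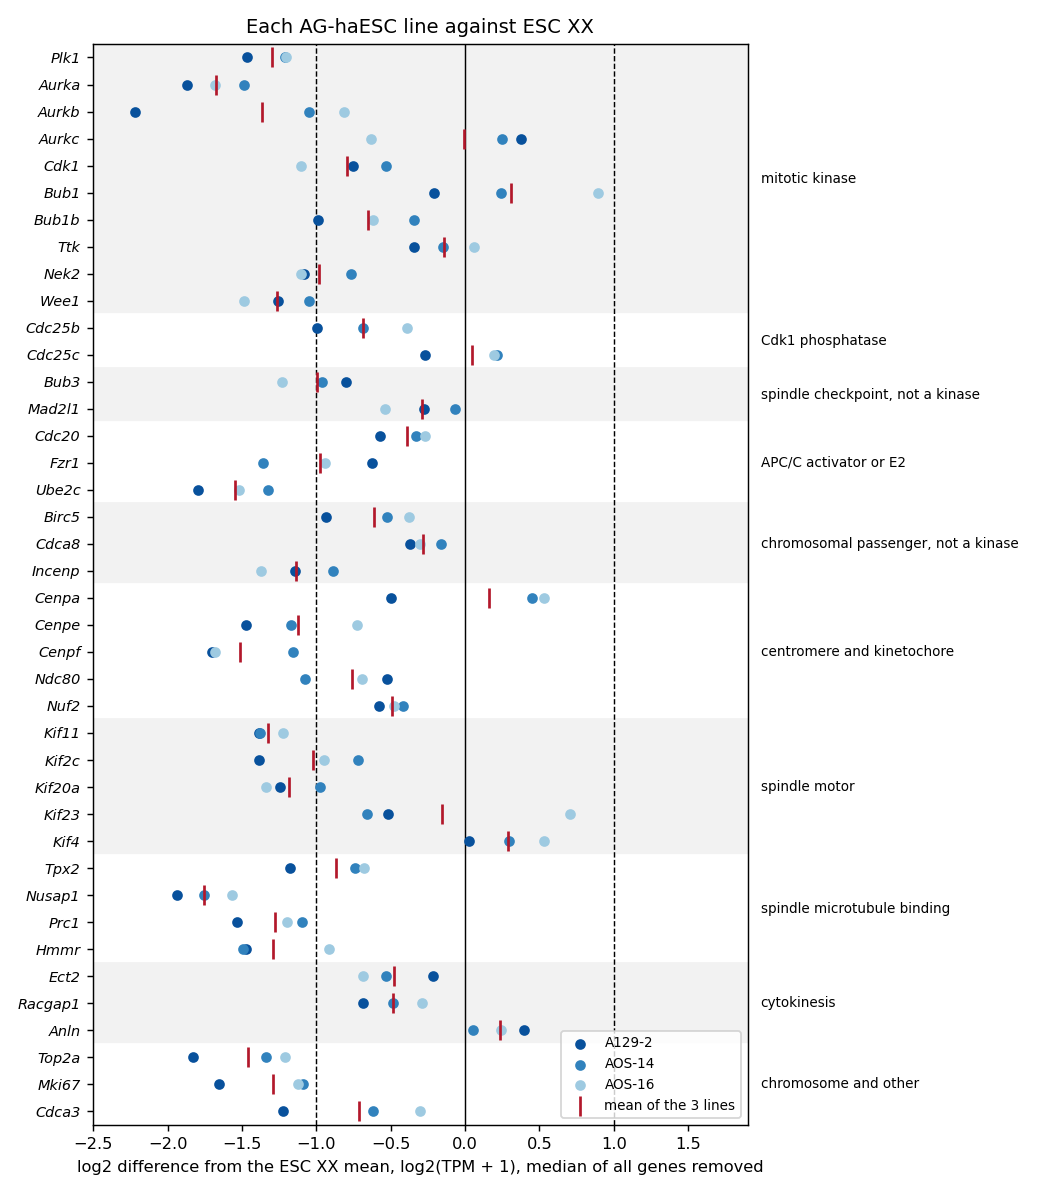
Log2 difference of each AG-haESC line from the ESC XX mean on log2(TPM + 1), with the median over all genes removed (x axis), for the 40 genes by role. Circles are lines, red ticks their mean and dashed lines the threshold of 1 in either direction. The means run from -1.75 for Nusap1 to 0.31 for Bub1, and none reaches the upper threshold.

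Each line showed a negative median over the 40 genes. It was -0.99 for line A129-2, -0.73 for AOS-14 and -0.71 for AOS-16, where all genes had medians of 0.12, -0.23 and 0.05. Leaving out 1 AG-haESC line at a time, the number of lower genes was between 15 (without A129-2) and 20 (without AOS-14) and the number of higher genes stayed at 0. Under each of the 10 alternatives computed, 12 genes were lower, namely Plk1, Aurka, Wee1, Ube2c, Cenpf, Kif11, Kif20a, Nusap1, Prc1, Hmmr, Top2a and Mki67.

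Other genes of mitosis, taken from lists of known complexes, were lower in smaller numbers. Of 98 such genes compared, 15 were lower (15.3%) and 2 were higher (2.04%), with a median of -0.50. Spindle motors outside the set had 5 of 8 lower, namely Kif18b (-1.77), Kifc1 (-1.41), Kif20b (-1.22), Kif18a (-1.11) and Kif14 (-1.03). Of 7 mitotic cyclins and Cks genes, Ccnf (-1.35) and Ccnb1, the main partner of Cdk1 (-1.31), were lower and Ccna1, a germ-cell cyclin, was higher (1.04). The Ccna1 values were low, at 1.39, 3.09 and 4.92 TPM in AG-haESCs against 1.12 and 0.902 TPM in ESC XX. Of 14 APC/C subunits and partners, only the APC/C inhibitor Fbxo5 was lower (-1.52). Of 25 other kinetochore genes, Cenpm (-1.37) and Cenpl (-1.34) were lower. Of 24 further G2-M genes, 5 were lower, namely Depdc1a (-1.17), Fam64a (-1.15), Aspm (-1.14), Troap (-1.14) and Cdca2 (-1.0045), and Pttg1, which encodes securin, was higher (1.03). Kif14, Cdca2 and Pttg1 were named after their values were seen. None of 8 condensin genes and none of 12 MuvB and FoxM1 regulators passed the threshold in either direction.

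Genes of G1-S and S phase were close to their ESC XX level. Of 15, 0 were lower and 0 were higher, with a median difference of -0.13, and they summed to 2466, 2271 and 2445 TPM in AG-haESCs against 2759 and 2761 TPM in ESC XX. Of the 15 differences, 11 were negative. All lines lay below both ESC XX libraries for 7 of these genes and above them for 1, against 25.7% and 24.9% of all genes. Feeder fibroblast markers moved in the same direction as the mitotic genes. Of 10, 9 were lower in AG-haESCs with a median of -3.40, and the list summed to 283, 228 and 361 TPM in AG-haESCs against 2409 and 2426 TPM in ESC XX. Of the 10, 5, 9 and 8 reached an FPKM of 1 in the AG-haESC lines against 10 of 10 in each ESC XX library. The part of other cells in the mitotic gene values was not tested. Of 7 meiotic spermatocyte markers compared, 4 were higher in AG-haESCs, among them Ccna1, already named above. That list summed to 114, 64.7 and 64.6 TPM in AG-haESCs against 30.3 and 28.7 TPM in ESC XX. Of 10 pluripotency markers, 0 were lower and 0 were higher.

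**Figure D4:**
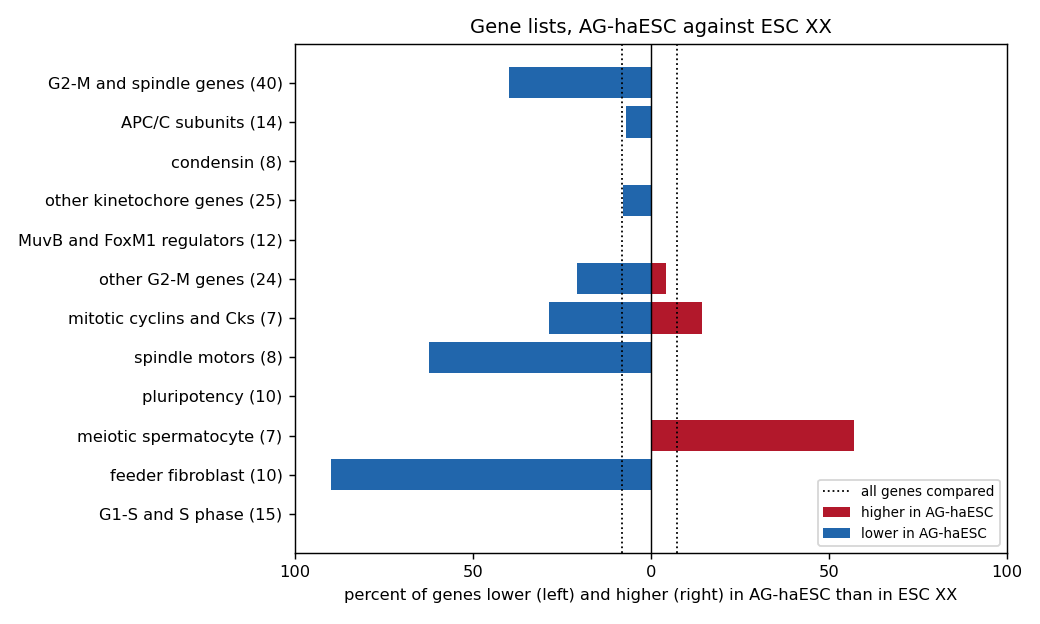
Percent of genes of each list lower (bars to the left) and higher (bars to the right) in AG-haESCs than in ESC XX, with the number compared in brackets and dotted lines for all 13172 genes (8.28% lower, 7.37% higher). The 40 genes reach 40% to the left and 0% to the right, and the G1-S list and the pluripotency list have no bar.

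AG-haESCs were next compared with round sperm, a comparison of stem cell lines with a germ cell. The set was not uniformly higher in the stem cells, and all 40 genes passed the filter on low values. Of 40 genes, 5 rose in AG-haESCs (12.5%), 12 fell (30%) and 23 passed in neither direction, where of 15938 genes tested 61.9% were called, 22.8% as higher and 39.1% as lower. Calls are from limma on log2(FPKM + 1), at a difference of at least 1 and an adjusted p (Benjamini-Hochberg) under 0.05. The shares of the 40 genes were lower than those of all genes in both directions. The median difference of the 40 genes was -0.45, and that of all genes was -0.49. When the libraries were rescaled to the same total, the median of all genes moved to 0.40 and that of the 40 genes to 0.60, and 13 genes (32.5%) rose and 10 (25%) fell, against 30.5% and 28.1% of all genes (58.7% in either direction). With genes under 200 nt left out before rescaling, 13 rose and 9 fell, against 32.4% and 29.5% of all genes. After quantile normalization 10 rose and 5 fell, against 29.9% and 28.7% of all genes (58.6% in either direction). Directions of moderate differences, and which genes were called, therefore depended on the scaling in this comparison. Calls and non-calls of single genes below are those without rescaling.

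The genes that rose belonged to different steps of mitosis. Cenpa stood at 53.6, 145 and 118 FPKM in AG-haESCs against 0.323 FPKM in round sperm, a log2 difference of 6.21 ± 0.74 (SE; adjusted p = 0.0108). The round sperm value rests on about 12.6 fragments at the 10.8 M estimate of depth, and on more at the 21.8 M estimate. Fragment numbers were computed with the longest annotated transcript (3806 nt for Cenpa), and a shorter transcript would give fewer. Mad2l1 stood at 31.1, 49.97 and 27.8 FPKM in AG-haESCs against 1.14 FPKM in round sperm (4.07 ± 0.44, adjusted p = 0.00892). The other genes that rose were Kif4 (2.58 ± 0.38), Cdc25b (2.22 ± 0.39) and Anln (1.63 ± 0.12), at adjusted p of 0.0169, 0.0238 and 0.00427. For each of the 5 genes all AG-haESC lines were above round sperm. Cdk1, at 35.1, 56.9 and 29.4 FPKM in AG-haESCs against 10.7 FPKM in round sperm, did not pass the test (1.77 ± 0.48, adjusted p = 0.0585).

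Of the 12 genes that fell, 5 were kinases, of which Nek2 alone kept its call after quantile normalization. Nek2 stood at 10.1, 17.7 and 10.7 FPKM in AG-haESCs against 137 FPKM in round sperm (-3.36 ± 0.41, adjusted p = 0.0117). Aurka stood at 19.6, 35.8 and 24.02 FPKM in AG-haESCs against 194 FPKM in round sperm (-2.87 ± 0.43, adjusted p = 0.017). These are the kinases of the centrosome, and neither overlapped. Wee1 (-2.503 ± 0.40), Plk1 (-2.35 ± 0.36) and the checkpoint kinase Ttk (-1.99 ± 0.34) fell as well, at adjusted p of 0.0203, 0.018 and 0.0225. Aurkb (0.75 ± 0.86), Aurkc (-0.87 ± 0.62), Bub1 (-0.54 ± 0.61) and Bub1b (-0.03 ± 0.55) did not pass, at adjusted p of 0.495, 0.307, 0.492 and 0.96.

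Of 5 centromere and kinetochore genes, Cenpf, Cenpe and Nuf2 fell while Cenpa rose. Cenpf stood at 2.81, 6.00 and 3.07 FPKM in AG-haESCs against 46.1 FPKM in round sperm (-3.30 ± 0.48, adjusted p = 0.0165). Cenpe stood at 4.28, 7.48 and 8.05 FPKM in AG-haESCs against 61.2 FPKM in round sperm (-3.07 ± 0.43, adjusted p = 0.0149). Both encode very large kinetochore proteins. Nuf2 fell by 2.87 ± 0.31 on the log2 scale (adjusted p = 0.0089), whereas its partner Ndc80 was at -0.46 ± 0.10 (adjusted p = 0.036), under the difference required. Fzr1, the APC/C activator of G1, had the smallest SE of the genes that fell (-2.94 ± 0.16). It stood at 26.1, 21.5 and 22.4 FPKM in AG-haESCs against 185 FPKM in round sperm. In TPM its lines were further apart, at 51.3, 30.3 and 41.0 in A129-2, AOS-14 and AOS-16. That is a ratio of highest to lowest line of 1.69, where the median ratio of the 40 genes was 1.43. Cdc20 (-0.44 ± 0.36, adjusted p = 0.358) and Ube2c (0.53 ± 0.47, adjusted p = 0.39) did not pass. The remaining genes that fell were Kif2c (-2.48 ± 0.55), Nusap1 (-2.37 ± 0.32) and Cdc25c (-2.05 ± 0.45), at adjusted p of 0.0391, 0.0138 and 0.0379. The phosphatases thus moved apart, Cdc25b upwards and Cdc25c downwards. Cdc25c lost its call after rescaling to the same total (-1.02), with short genes left out (-1.05) and after quantile normalization (-0.92). The Cdc25b value in round sperm rests on about 15.2 fragments at the smaller estimate of depth.

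No passenger complex gene passed the test, with Incenp at -1.32 ± 0.45 (adjusted p = 0.0912), Birc5 at -0.93 ± 0.46 (adjusted p = 0.176) and Cdca8 at 0.49 ± 0.35 (adjusted p = 0.309). The cell-cycle antigen Mki67 was at 8.22, 17.2 and 13.03 FPKM in AG-haESCs against 3.78 FPKM in round sperm (1.48 ± 0.50, adjusted p = 0.0884). Cdca3, a factor for the turnover of Wee1, was at 43.5, 91.97 and 88.6 FPKM in AG-haESCs against 318 FPKM in round sperm (-2.15 ± 0.59, adjusted p = 0.0605). Neither passed, although no line overlapped round sperm. Cdca8 was called as higher after rescaling to the same total (1.56), with short genes left out (1.54) and after quantile normalization (1.83). The 10 genes without a call not given above, among them Kif11, Tpx2, Hmmr, Ect2, Racgap1 and Top2a, had differences between -1.11 (Prc1) and 0.56 (Bub3). Kif11 (1.20), Tpx2 (1.39), Hmmr (1.40) and Mki67 (2.45) were called as higher after rescaling to the same total. These calls held with short genes left out and rescaled, but not after quantile normalization. Under all 8 alternatives only Mad2l1, Fzr1 and Anln kept their calls. Without AOS-16 they were the 3 genes called, 2 higher and 1 lower, while 16.7% of all genes were called as higher and 33.3% as lower (50% in either direction).

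**Figure D5:**
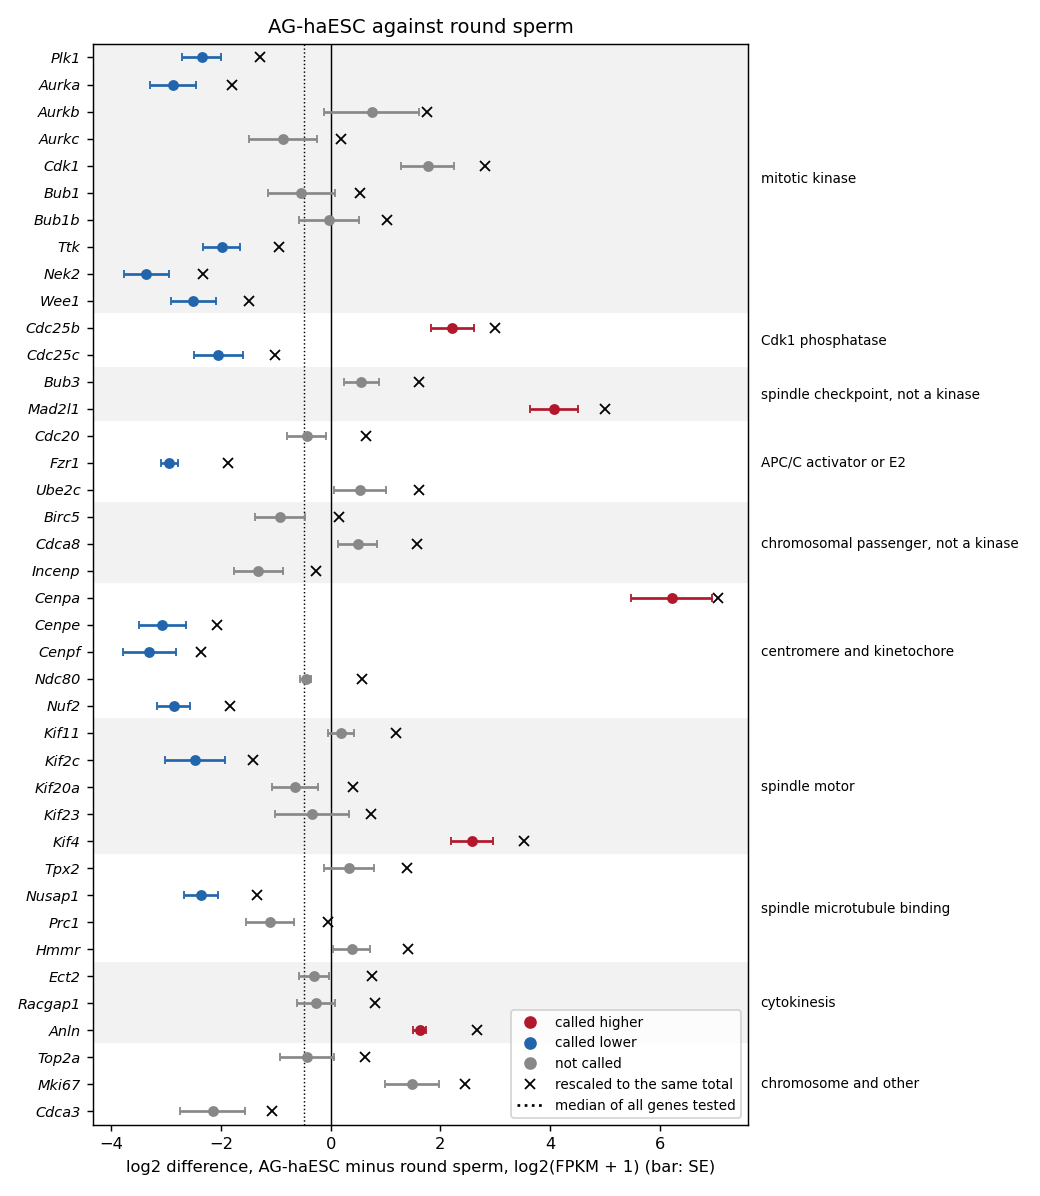
Log2 difference, AG-haESC minus round sperm, on log2(FPKM + 1) with its SE from limma (3 and 1 libraries) for the 40 genes by role. Red marks genes that rose (5), blue genes that fell (12) and grey the rest, crosses give the value after rescaling to the same total, and the dotted line is the median of all genes tested (-0.49). The crosses lie to the right of the circles, and for several grey genes on the other side of 0.

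Among the 98 other genes of mitosis tested against round sperm, 25 rose and 25 fell (25.5% each), against 22.8% and 39.1% of all genes. The even split depended on the scaling, and after rescaling to the same total more of them rose than fell. Their median difference moved from 0.18 to 1.17, while that of all genes moved from -0.49 to 0.40. Of 25 other kinetochore genes, 10 rose, among them Pmf1 (3.53), and 4 fell, among them Cenpn (-4.04). Of 14 APC/C subunits and partners, 4 rose, with Fbxo5 at 3.85, and 2 fell, with the subunit Cdc27 at -3.11. Of 12 MuvB and FoxM1 regulators, 5 fell, including Foxm1 (-4.02) and Rbl2 (-3.70), and 2 rose. Cdkn3, a phosphatase that acts on cyclin-dependent kinases, fell by 6.12, Ccna1 fell by 6.89 and Cks1b, a small subunit of these kinases, rose by 5.69 on the log2 scale. Genes of G1-S and S phase behaved otherwise, with 11 of 15 higher and 0 lower in AG-haESCs. Markers of meiotic spermatocytes summed to 64.6 to 114 TPM in AG-haESCs against 510 TPM in round sperm, of which Ccna1 gave 259 TPM. The part of meiotic spermatocytes in these values was not tested.

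Round sperm and ESC XX were compared by the size rule alone. Of the 40 genes, 7 were higher in round sperm (17.5%) and 17 were lower (42.5%), where 77.4% of 15640 genes differed by the rule, 39.2% higher and 38.2% lower. The higher genes were Nuf2 (1.75), Nek2 (1.74), Cdc25c (1.47), Cenpe (1.35), Fzr1 (1.31), Cenpf (1.26) and Ttk (1.20). Both comparisons with round sperm share its 1 library. The largest differences in the other direction were Cenpa (-6.49), Mad2l1 (-4.88), Mki67 (-3.33), Cdc25b (-3.28) and Cdk1 (-3.20). Without the removal of the median, 2 genes were higher and 22 lower, and the shares of all genes above do not apply to these counts.

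Among the AG-haESC lines, the ratio of the highest to the lowest line in TPM had a median of 1.43, from 1.12 for Kif11 to 2.76 for Aurkb, and the median over 8332 genes of the same range of levels was 1.59. A129-2 was the lowest line for 26 of 40 genes (65%), and it was the lowest for 20.1% of those 8332 genes. Against the mean of the other 2 lines, the median of the 40 genes was -0.29 in A129-2, where that of all genes was 0.20, and 31 of 40 were negative (34 of 40 with genes under 200 nt left out). Differences of at least 1 outside the other lines occurred for Aurkb, at 14.2 TPM in A129-2 against 33.1 and 39.2 TPM in AOS-14 and AOS-16 (-1.29), and for Kif23, at 106 TPM in AOS-16 against 44.9 and 40.6 TPM in A129-2 and AOS-14 (1.29). The background of such differences over 12637 genes was 15.3% in A129-2 (10.7% higher, 4.64% lower), 10.9% in AOS-14 (3.41% higher, 7.47% lower) and 7.38% in AOS-16 (5.18% higher, 2.2% lower). With genes under 200 nt left out, 2 of the 40 genes were lower in A129-2, against 5.34% of all genes, and 1 was lower in AOS-16, against 2.81%. After quantile normalization 3 were lower in A129-2, against 5.86%. Of the 10 feeder fibroblast markers, 8 (80%) were lower in A129-2 in the main setting and 1 (10%) was higher, with a median difference of -2.04. The part of feeder cells in the differences between lines was not tested. Each line had 1 library, so the differences between lines have no replicate check. Kif23 encodes the central spindle motor that works with Racgap1, which did not show this pattern (51.3, 59.3 and 68.1 TPM in A129-2, AOS-14 and AOS-16).

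Exons of 6 genes share at least 100 bases with a gene of the opposite strand that the tables also list, namely Cdca8, Kif20a, Kif4, Nusap1, Prc1 and Ube2c, with the largest overlap of 1271 bases between Kif20a and Cdc23. The library kit keeps strand, but the use of strand in counting is not given in the sources used here, so the values of these 6 genes are uncertain to that extent.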

How the data were processed

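RNA sequencing of 3 AG-haESC, 1 round sperm and 2 ESC XX libraries was analysed from deposited FPKM tables. Per the submitters' processing notes, the authors used TopHat2 2.0.13 and Cuffdiff 2.2.1 with mm9, with settings not given in the sources used here. In the header of the table that holds AG-haESC and round sperm no unit is named, and FPKM was taken from the values and the tool. Each ESC XX library has a separate table. Depth was estimated from the steps of low FPKM values and is approximate.

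AG-haESCs and round sperm were compared with limma 3.58.1 (R 4.3.3) on log2(FPKM + 1), with a mean-variance trend, over genes that reached 1 FPKM in 1 or more libraries, two-sided, with Benjamini-Hochberg adjustment over all of them. As round sperm has 1 library, the spread is that of the 3 lines, on 2 residual degrees of freedom, so p-values measure the spread between these lines and round sperm is assumed to vary like them. Comparisons with ESC XX used TPM, computed here from FPKM, with no test. Differences on the log2(value + 1) scale understate changes of low genes.

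The 40 genes and the other lists were chosen with earlier results of these data known. All 40 genes were to be described, with up to 4 genes a list of those with the largest differences called in a comparison. Protein sequences were not analysed here. Between ESC XX libraries, differences stood at 1.15 times counting noise for genes of 10 to 100 fragments, against 5.52 to 12.5 times between AG-haESC lines. For genes of 100 to 1000 fragments the values were 1.32 times between ESC XX libraries and 19.2 to 42.7 times between AG-haESC lines. Alternatives covered the pseudocount (0.1), the low-value filter, the scaling, genes under 200 nt and each library left out.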

Additional observations from a re-analysis of the deposited data

How the results depend on the processing

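No paired analysis was possible because each AG-haESC library is a line of its own, round sperm has 1 library and the replicate numbers of ESC XX pair with no other group.

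Against round sperm, 5 genes rose and 12 fell. After rescaling to the same total 13 rose, with short genes left out and rescaled 13 rose, and after quantile normalization 10 rose and 5 fell. Of the fits with 1 AG-haESC line left out, that without AOS-16 gave the fewest calls. Shares of all genes are given above for that setting only, so the numbers of calls without A129-2 or AOS-14 cannot be judged. Of 17 calls, 3 were shared with that setting, 10 without AOS-14 and 14 without A129-2, and the cause was not tested.

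Under each of the scalings above, some genes uncalled in the main fit were called as higher. In that order, they stood at 2.81, 2.79 and 2.61 for Cdk1, 1.61, 1.59 and 2.04 for Ube2c, 1.56, 1.54 and 1.83 for Cdca8, and 1.62, 1.59 and 1.63 for Bub3. Plk1 (-0.70), Aurka (-1.19), Ttk (-0.62), Wee1 (-1.38), Kif2c (-0.95), Nusap1 (-1.26) and Cdc25c (-0.92) lost their calls after quantile normalization. After rescaling to the same total, Ttk (-0.94) and Cdc25c (-1.02) lost their calls as well. Kif11, Tpx2, Hmmr and Mki67 were called as higher after rescaling, with or without short genes, but not after quantile normalization. No gene called in this comparison changed sign. Genes without a call that did so, of which Cdc20 passed the limma test after quantile normalization (adjusted p = 0.0251), had, after rescaling to the same total, with short genes left out and rescaled, and after quantile normalization, differences of 0.18, 0.16 and 0.28 for Aurkc, 0.53, 0.50 and 0.82 for Bub1, 1.03, 1.00 and 1.13 for Bub1b, 0.64, 0.61 and 1.23 for Cdc20, 0.15, 0.12 and 0.81 for Birc5, 0.57, 0.55 and 0.40 for Ndc80, 0.41, 0.39 and 0.67 for Kif20a, 0.73, 0.70 and 0.93 for Kif23, 0.75, 0.72 and 0.84 for Ect2, 0.80, 0.78 and 1.01 for Racgap1, and 0.63, 0.60 and 0.86 for Top2a. Prc1 stood at 0.13 after quantile normalization and Bub1b at 0.23 without A129-2 (-0.32 to 0.23 over the lines left out). These scalings move the median of all genes from -0.49 to 0.40, 0.37 and 0.31.

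Against ESC XX, AG-haESCs had 15 to 20 lower genes and 0 higher under every alternative. For round sperm against ESC XX, higher genes numbered 2 without the filter and 2 without removal of the median, where the main count was 7. Shares of all genes are not given for these 2 settings. Among the lines, A129-2 had 2 lower genes with short genes left out and 3 after quantile normalization, and AOS-16 had 1 lower gene with short genes left out. Depth limited round sperm values of Cenpa and Cdc25b, at about 12.6 and 15.2 fragments at the smaller estimate of depth and the longest annotated transcript.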
